A study of Mus musculus with 3 samples.

Results

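Mir192, Mir194-2, Mir215 and Mir194-1 are 4 mouse miRNA genes in 2 clusters, Mir194-2 with Mir192 on chromosome 19 and Mir194-1 with Mir215 on chromosome 1. They were chosen by name, as 4 of the 1005 mouse miRNA hairpin genes in the RefSeq table used here, and both arms of each hairpin (5p and 3p) were examined. Small RNA libraries were made from MIN6 cells in 3 biological replicates. MIN6 is a mouse insulinoma line used as a model of the pancreatic beta cell, and all cultures were grown in DMEM with 25 mM glucose and serum, with no other treatment named in the labels. The line is a tumor line, and the 3 libraries form 1 condition, so no comparison between conditions was possible and each value is given per library or as mean ± SD over the libraries.

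A miRNA hairpin is cut by Drosha and Dicer into a short duplex, of which one strand is usually retained in an Argonaute protein. Targets are recognised mainly through the seed, bases 2 to 8 of the strand, so a strand that begins 1 base later carries another seed. Such a form is a 5′-shifted isomiR, and miR-192-5p+1 denotes the form of miR-192-5p that starts 1 base downstream of the reference 5′-start. The miR-192 and miR-194 families are known for high expression in the epithelia of liver, intestine and kidney, and miR-192 and miR-215 are treated as a single family because their 5p strands share a seed.

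The strands on which the results turn follow from RefSeq (build GRCm38.p6), with the seed in capitals, because the forms of Mir192 differ in it.

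miR-192-5p: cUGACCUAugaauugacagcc
miR-215-5p: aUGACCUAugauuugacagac
miR-192-5p+1, in its most frequent length: uGACCUAUgaauugacagccagu
miR-194-5p, the same from both genes: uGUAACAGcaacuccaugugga

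The seed UGACCUA occurred in 2 mature mouse miRNAs of the RefSeq table, miR-192-5p and miR-215-5p, and GUAACAG only in miR-194-5p. The +1 seed, GACCUAU, was the reference seed of 0 mature mouse miRNAs in that table. Counting positions from 1 at the 5′-end and giving the base of miR-192-5p first, with T for U, miR-215-5p differs from it at 3 positions, C1A, A12T and C20A, so that reads of the miRNAs can be told apart.

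The next 4 sequences show, in capitals, the bases by which transcripts of the 2 miR-194 genes can be told apart. The 3p arms differ at 4 positions (G8A, T19C, C20T and G22C, the base of miR-194-2-3p first), of which the first lies in the seed. The 5p arms are identical over 22 nt and differ at the next base of the hairpin, position 23.

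miR-194-2-3p: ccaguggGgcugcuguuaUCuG
miR-194-1-3p: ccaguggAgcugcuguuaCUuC
miR-194-5p of Mir194-2, 23 nt: uguaacagcaacuccauguggaA
miR-194-5p of Mir194-1, 23 nt: uguaacagcaacuccauguggaC

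On the build of the alignments, mm9, Mir194-2 occupies chr19:6264643-6264728 and Mir192 chr19:6264844-6264932, and Mir194-1 occupies chr1:187137198-187137264 and Mir215 chr1:187137460-187137571, all on the plus strand. These positions were found from the reads, and 0 of the 1160 mismatch records within Mir192 gave the base that the hairpin sequence already has at that position, which was also 0 of 145 in Mir194-2, 0 of 125 in Mir194-1 and 0 of 12 in Mir215. The Mir215 hairpin was placed from its spacing to Mir194-1, and its few reads make that check weak. In the GENCODE M21 annotation of GRCm38, the chromosome 19 hairpins overlap no other gene and lie downstream of Atg2a, an autophagy gene that ends 2308 nt before Mir194-2. In that build the chromosome 1 hairpins (chr1:185313319-185313385 and chr1:185313581-185313692) lie within an intron of Iars2, which encodes the mitochondrial isoleucyl-tRNA synthetase and runs on the opposite strand. They also lie in 2010103J01Rik, a noncoding gene on their own strand, with Mir194-1 in its intron and Mir215 in exon 2.

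The libraries held 9269795, 10816006 and 10218743 mapped reads in replicates 1, 2 and 3, so that 0 reads allow a level of up to 0.277 to 0.324 reads per 1000000 mapped reads (RPM). The beta cell markers miR-375-3p (354247 RPM ± 18597), miR-182-5p (37073 RPM ± 2197) and miR-200a-3p (431 RPM ± 26.2) were abundant (SD, n = 3), and miR-7a-5p was present at 195 and 210 RPM at 2 of its genes. Its counts at these genes were fractional, from reads divided between loci, so neither value is its full level. The endothelial miR-126-3p was at 15.4 RPM ± 0.534 (SD, n = 3) at its reference start, and 32.9% of its arm began 1 base late. The other arm of that hairpin, miR-126-5p, was higher, at a mean of 116 RPM. The hepatocyte, acinar, blood and smooth muscle markers were not analysed here. The libraries are shifted against each other, since 111 of 158 placed reference starts had their highest RPM in replicate 1, with a median ratio of replicate 1 to the mean of the others of 1.10.

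miR-192-5p was the dominant product of the 4 genes. Its reference start (chr19, position 6264857) held 10683, 10887 and 10084 reads, or 1152, 1007 and 987 RPM in replicates 1, 2 and 3, with a mean of 1049 RPM ± 90.5 (SD, n = 3). Replicate 1 was highest, 1.16 times the mean of the other libraries, in the direction that most placed starts shared. By level, miR-192-5p stood 48th among the 179 5′-starts that could be placed from the study's list of highly expressed miRNAs. The nearest above it was miR-434-3p (1078 RPM ± 55.5) and the nearest below it miR-130b-3p (1039 RPM ± 82.7), and neither differed from it beyond the spread between libraries (SD, n = 3).

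A second 5′-start of Mir192, 1 base downstream, held 2719, 2825.5 and 2639.5 reads, or 293, 261 and 258 RPM (mean 271 RPM ± 19.4, SD, n = 3). The fractional values arise because the authors divided reads with several equally good loci among them. miR-192-5p+1 therefore made up 20.3%, 20.6% and 20.7% of the reads of the 5p arm, with 95% Wilson intervals of 19.59 to 20.95%, 19.92 to 21.27% and 20.04 to 21.44% in replicates 1, 2 and 3. These intervals, which cover counting error only, overlap, so the share did not differ detectably between the libraries, although the level did follow the order of the libraries. The mean share was 20.5% ± 0.236 (SD, n = 3), and the reference start exceeded the +1 start 3.87-fold ± 0.0557 (SD, n = 3), in 3 of 3 libraries. An exact sign-flip permutation test over 3 libraries cannot give a two-sided p below 0.25, and 0.25 was its value for this ratio and for every within-library comparison that was tested, so none of them could be called. In level, miR-192-5p+1 stood 102nd among the placed starts, between miR-181a-1-3p (272 RPM ± 23.7) and miR-106b-3p (263 RPM ± 16.5), whose ranges over the libraries overlapped its own.

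Shifts of this size were uncommon among the placed miRNAs. Over the 158 placed reference starts, a median of 0.182% of an arm's reads began 1 base late, and 7 starts had a higher +1 share than miR-192-5p. These are counts of loci, some of which share reads. The 7 include miR-125b-1-5p (36.9%) and miR-125b-2-5p (38.5%), whose counts are fractional. Other starts of the Mir192 5p arm were rare, with 34 reads in total 1 base upstream, 4 reads 2 bases downstream and 2 reads 2 bases upstream. The +1 start was not seen to this extent at the related arm, since Mir215 had 0.5 of 82.5 5p reads there, against an upper 95% Wilson limit of 4.48%. At miR-194-5p, 0 of 3001 reads began 1 base late, which allows a share of up to 0.1%.

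**Figure D1:**
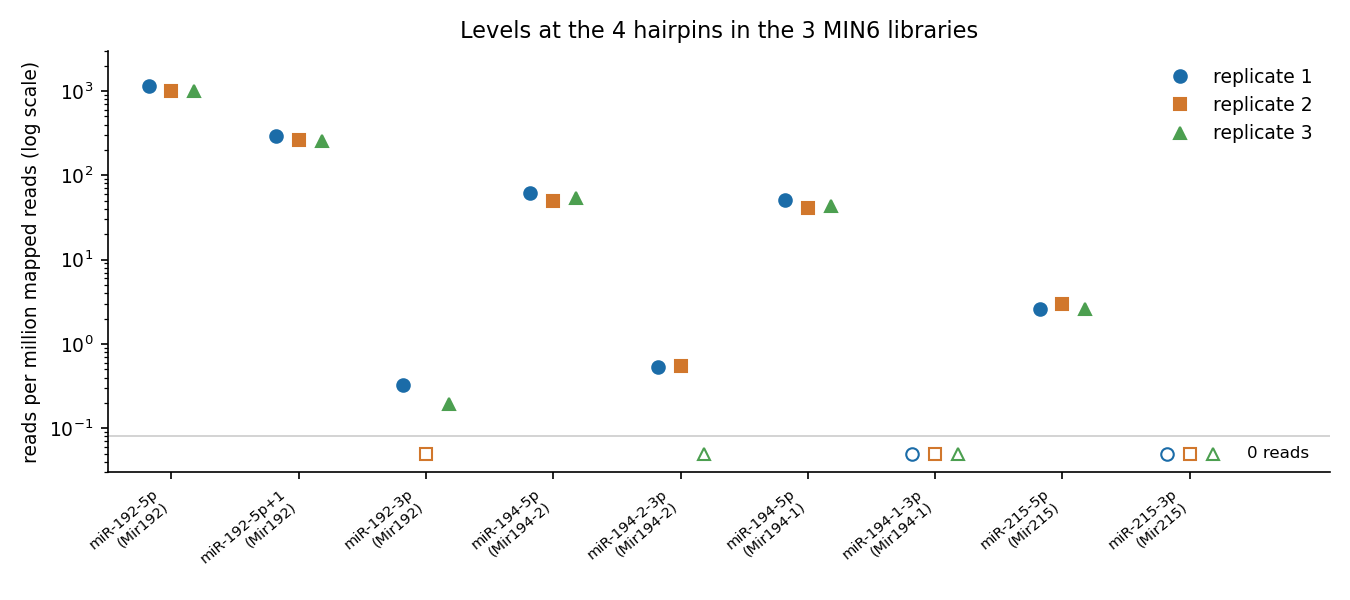
RPM (log axis) of each arm of the 4 hairpins, with both 5′-starts of the Mir192 5p arm shown separately, in the 3 MIN6 libraries (1 marker shape per replicate, open markers for 0 reads). The 5p arms stand above the 3p arms in every hairpin, and miR-192-5p, at 987 to 1152 RPM, is highest. Reads shared by Mir194-2 and Mir194-1 are divided equally, so the 5p levels plotted for these genes mostly reflect that division.

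Both forms of miR-192-5p differed at the 3′-end as well as at the 5′-end. Reads from the reference start ended at position 21 in 77.5%, 79.6% and 79.9% of cases (mean 79.0% ± 1.29, SD, n = 3), which gives the 21-nt reference form, and 10.6% ± 0.655 ended at position 22, 3.96% ± 0.223 at position 20, 3.17% ± 0.377 at position 23 and 2.58% ± 0.140 at position 24 (SD, n = 3). Reads from the +1 start ended at position 24 in 42.6%, 42.5% and 42.2% of cases (mean 42.5% ± 0.201), at position 23 in 30.4% ± 0.545, at position 22 in 15.1% ± 0.617 and at position 21 in 9.96% ± 0.566 (SD, n = 3). The most frequent +1 form was thus 23 nt long, 2 nt longer than the most frequent reference form despite its later start.

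**Figure D2:**
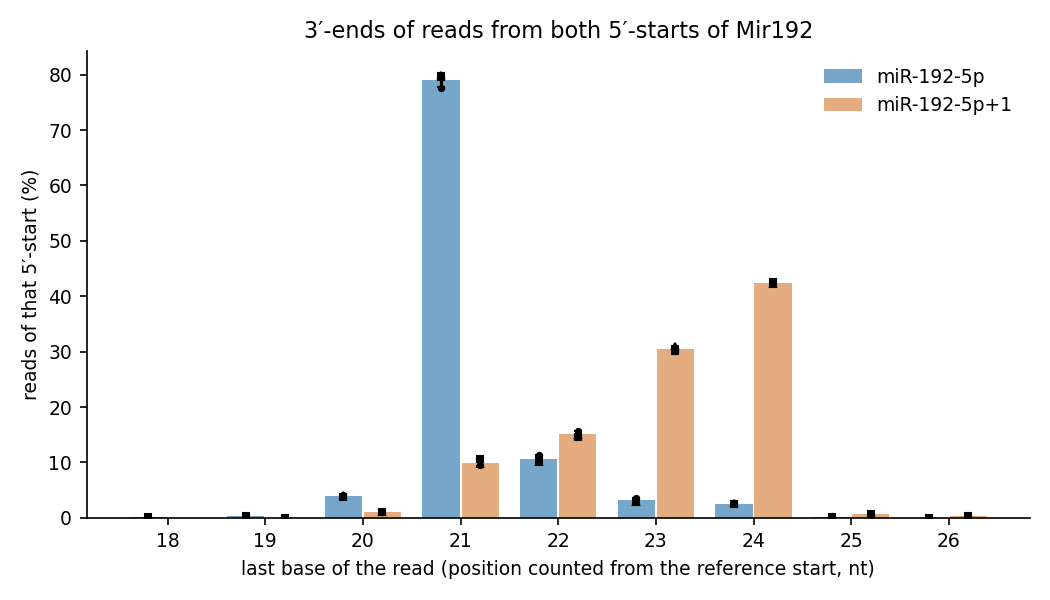
Share of reads (%) by last base, counted from the reference start, for reads from the reference start and from the +1 start of Mir192; bars are means over 3 libraries, error bars are SD and black markers are the libraries. The reference form peaks at position 21 (79.0%), and the +1 form at position 24 (42.5%).

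Averaged over reads, the last base lay 1.83, 1.86 and 1.86 nt further downstream for miR-192-5p+1 than for miR-192-5p in replicates 1, 2 and 3 (mean 1.85 nt ± 0.0191, SD, n = 3; 3 of 3 libraries; exact sign-flip permutation p = 0.25). In reads without any mismatch, the mean last base was 21.07 ± 0.00207 at the reference start and 23.02 ± 0.0123 at the +1 start (SD, n = 3), so the difference was as large in those reads. The genome has T at position 24, and an untemplated U added to a read ending at 23 cannot be told apart from a templated one. Among reads without mismatch, 28.1% ± 0.483 of +1 reads and 0.187% ± 0.0280 of reference reads ended at position 23 (SD, n = 3).

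The displacement was compared with that of the 35 other arms that had at least 100 reads at the +1 start in every library. In these arms, some of which share reads between paralogous genes, the mean last base of the +1 reads moved by a median of 0.405 nt, and the range was -0.114 to 0.968 nt, below the value of miR-192-5p. In 28 of the 35 arms the most frequent last base was the same for both starts, and at miR-192-5p it moved by 3 nt. This comparison describes the placed arms and carries no test.

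**Figure D3:**
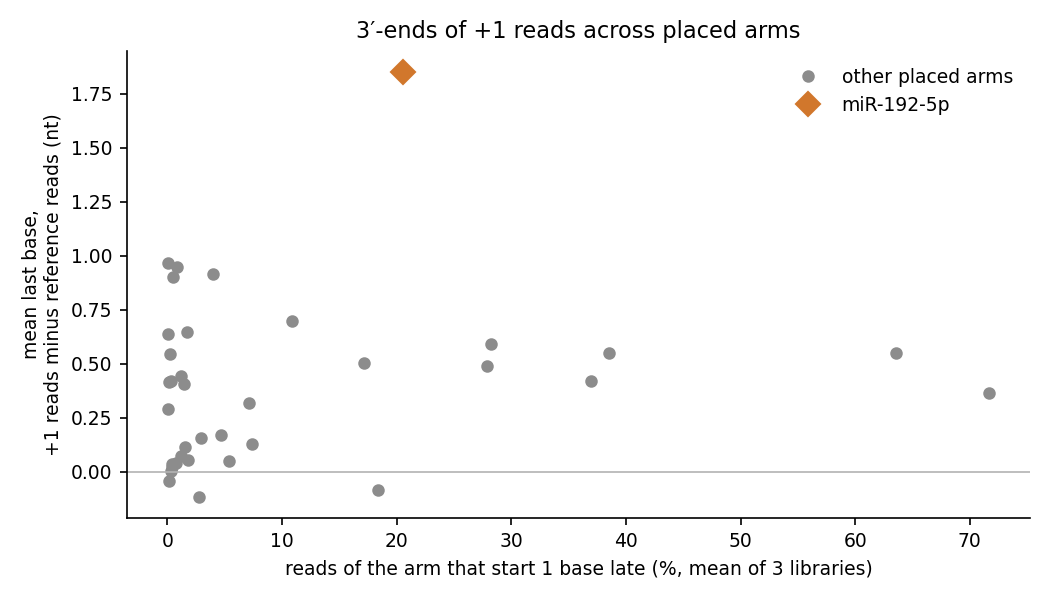
Mean last base of reads starting 1 base late minus that of reads from the reference start (nt) against the share of the arm that starts 1 base late (%), for miR-192-5p and 35 other placed arms, means over 3 libraries. miR-192-5p lies at 20.5% and 1.85 nt, above every other arm shown.

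A further part of the reads ended in a base that the genome does not have. At the reference start of miR-192-5p the last base mismatched in 9.50%, 8.82% and 8.58% of the reads in replicates 1, 2 and 3 (mean 8.97% ± 0.478, SD, n = 3; all libraries together 8.97%, 95% Wilson interval 8.66 to 9.29%). T, which stands for U in the RNA, was the mismatching base in 7.74% ± 0.470 and A in 0.669% ± 0.0835 of reads (SD, n = 3). At the placed reference starts the median was 7.67% for all mismatching ends, 4.42% for T and 1.40% for A, with 71, 58 and 112 of 158 starts above miR-192-5p. The share of mismatching ends of miR-192-5p thus lay near the middle of the placed miRNAs.

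Most of the mismatching T ends at the reference start were at 2 positions. The substitution A22T in 22-nt reads, which is a U after the 21-nt form, was carried by 4.68% ± 0.139 of the reads at the reference start, and G23T in 23-nt reads, a U after a 22-nt form, by 2.76% ± 0.319 (SD, n = 3). Among the latter, 8.41%, 7.99% and 4.35% also carried A22T. At miR-192-5p+1 the last base mismatched in 8.16%, 8.25% and 7.67% of reads (mean 8.03% ± 0.311, SD, n = 3), with a difference of -0.939 percentage points ± 0.381 from the reference start, lower in 3 of 3 libraries (exact sign-flip permutation p = 0.25). T made up 5.003% ± 0.401 and A 2.44% ± 0.105 of the +1 reads (SD, n = 3), and G23T in 22-nt reads (4.14% ± 0.274) and T24A in 23-nt reads (1.83% ± 0.168) were the most frequent of these (SD, n = 3). Mismatching A was thus more frequent at the +1 start than at the reference start in every library, with 2.32%, 2.51% and 2.48% against 0.637%, 0.606% and 0.764%. The genome has A at position 22, so an A added to the 21-nt form matches it and is not among these reads. It has T at position 24, so a U added to a read ending at position 23 matches it as well. Position 24 was the last base of 42.5% of the +1 reads and 2.58% of the reference reads. The shares of mismatching ends, and of T among them, are therefore not like measures of added bases at the 2 starts.

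Mismatches inside the read were concentrated at the neighboring bases A11 and A12. At the reference start, A12C was present in 17.0%, 16.6% and 16.7% of the reads (mean 16.7% ± 0.201) and A11C in 4.99%, 4.94% and 4.69% (mean 4.87% ± 0.160, SD, n = 3). At the +1 start the order was turned around, with A11C in 9.81% ± 0.756 and A12C in 4.39% ± 0.563 of reads (SD, n = 3). Because the +1 reads begin 1 base later, A11 and A12 are positions 10 and 11 of those reads and positions 11 and 12 of the reference reads.

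The share of A read as C at a given position of the read was similar at other miRNAs. Among placed reference starts with at least 1000 reads in every library and a RefSeq sequence, 24 had A at read position 12, and C was read there in a median of 18.2% (range 7.10 to 22.7%), with miR-192-5p in place 18 from the top. The median was 7.64% over 18 starts with A at read position 11, with miR-192-5p in place 15, and 12.8% over 28 starts with A at read position 10, whereas it was 0.0220% at position 13. Positions 10 to 12 were not the only ones, since the median was 9.02% at position 6, 2.64% at position 9 and 1.18% at position 17. At read position 17, miR-192-5p+1 carried A18C in 1.25% ± 0.142 of reads (SD, n = 3). miR-194-5p, which has A at positions 10 and 11, carried A10C in 11.9% ± 0.510 and A11C in 5.73% ± 0.451 of the reads at Mir194-2 (SD, n = 3). At the same read position, 11, the values of both forms of miR-192-5p were close (A11C in 4.87% and A12C in 4.39%), although the base of the miRNA differs, and the origin of these substitutions was not tested. Of the reads, 68.2%, 69.1% and 69.3% at miR-192-5p and 73.6%, 75.3% and 74.7% at miR-192-5p+1 aligned without mismatch. Among all mapped reads, 71.3 to 71.8% were marked as exact alignments, which is a narrower definition.

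**Figure D4:**
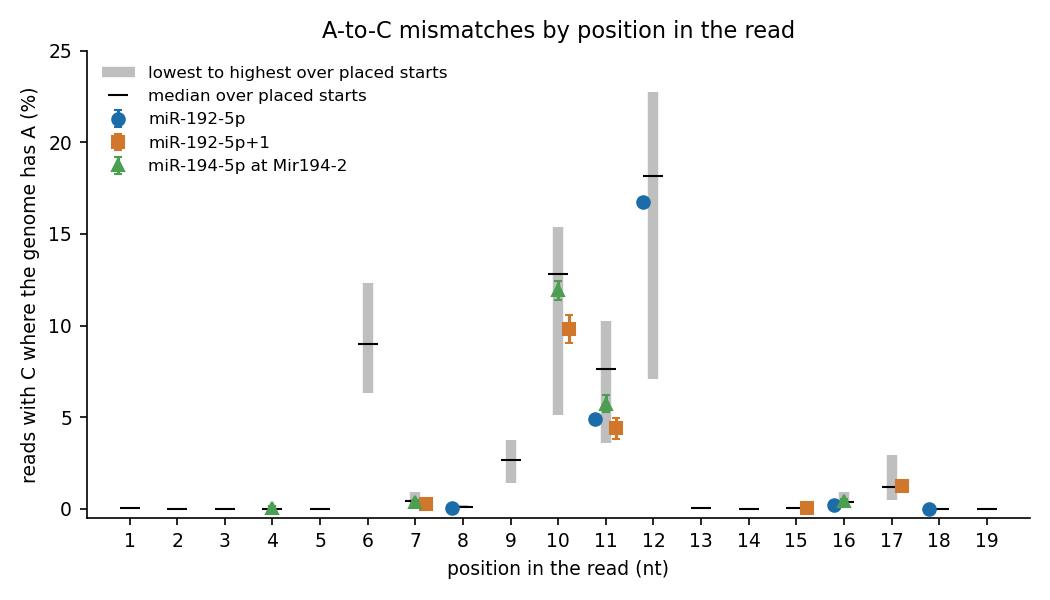
Share of reads with C where the genome has A (%), by position in the read, for miR-192-5p, miR-192-5p+1 and miR-194-5p (points, mean ± SD over 3 libraries) and for the placed reference starts (grey range from lowest to highest and black median). The member values at positions 10, 11 and 12 lie within the grey ranges, below the medians.

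Of the opposite arm of Mir192, few reads were recovered. miR-192-3p had 3, 0 and 2 reads in replicates 1, 2 and 3, all at its reference start, at or below the 3 reads that a count of 0 allows. Over the 3 libraries the 5p arm held 39878 reads and the 3p arm 5, a ratio of 7976, and the 5p arm made up 99.99% of both (95% Wilson interval 99.97 to 99.99%). A further 6 reads began 19 to 22 nt upstream of the 5p start and 2.5 reads elsewhere in the hairpin, and 0 reads were antisense to it. The arm ratio is a ratio of reads from arms with different sequences, and how well each is captured was not tested.

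miR-194-5p was about an order of magnitude below miR-192-5p. Its reference start, summed over both genes, held 1030, 977 and 974 reads, or 111, 90.3 and 95.3 RPM (mean 98.9 RPM ± 10.9, SD, n = 3), and as for miR-192-5p replicate 1 was highest. The Mir192 5p arm exceeded the miR-194-5p arms 13.001-fold, 13.96-fold and 12.92-fold within the libraries. Of the miR-194-5p reads, 76.7% ± 0.571 were 22 nt long, 13.7% ± 1.02 were 23 nt and 5.87% ± 0.890 were 21 nt (SD, n = 3). The last base mismatched at every gene to which a read was placed in 5.24%, 5.22% and 3.799% of reads (mean 4.75% ± 0.827, SD, n = 3), below miR-192-5p in 3 of 3 libraries, and T was that base in 4.25% ± 0.751 (SD, n = 3). The measures differ, since reads of miR-192-5p were scored at Mir192 only. Scored at Mir194-2 only, the share was 6.50% ± 0.683 (SD, n = 3), also below miR-192-5p in each library. An A added to the 22-nt form matches Mir194-2 and is not counted in either share.

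Most miR-194-5p reads cannot be attributed to either gene. Of the 5p arm, 565, 540.5 and 544 reads were placed at Mir194-2 and 467, 442.5 and 442 at Mir194-1, but these similar totals mostly reflect the equal division of shared reads. Shared reads contributed 460, 435.5 and 439 reads to each gene, and the 105 pairs of alignments of the same read at both genes had equal counts in 105 cases. Only 10.85%, 11.39% and 10.95% of the reads had a sequence placed at 1 gene. Of these, 105 in each of the 3 libraries were placed at Mir194-2, and 7, 7 and 3 at Mir194-1. Mir194-2 thus held 93.8%, 93.8% and 97.2% of them (mean 94.9% ± 2.00, SD, n = 3). Over all libraries it held 315 of 332 reads (95% Wilson interval 92.0 to 96.8%). In reads placed at 1 gene, Mir194-2 exceeded Mir194-1 in 3 of 3 libraries (mean 21.7-fold ± 11.5, SD, n = 3, exact sign-flip permutation p = 0.25).

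**Figure D5:**
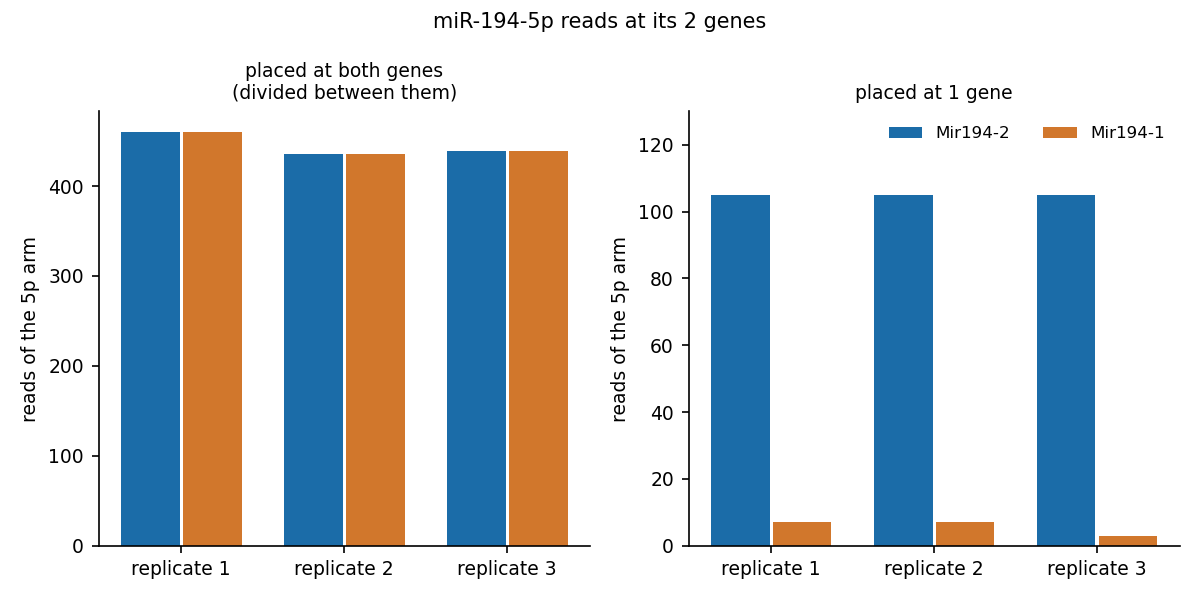
Reads of the miR-194-5p arm at Mir194-2 and Mir194-1 in each library, divided into reads placed at both genes (left, shared equally between them) and reads placed at 1 gene (right). The reads placed at 1 gene number 105 per library at Mir194-2 and 3 to 7 at Mir194-1.

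Most of the reads placed at 1 gene were 23-nt reads without mismatch, of which 83, 68 and 70 carried the A of Mir194-2 and 2, 2 and 0 the C of Mir194-1. An untemplated A after the 22-nt form cannot be told apart from the A of Mir194-2, and 0 reads of 24 nt or longer matched Mir194-2 throughout, against 1 for Mir194-1. The 23-nt reads with A were 8.06%, 6.96% and 7.19% of miR-194-5p reads, and 13 of 158 placed starts had more than their mean of 7.40% in mismatching A ends, up to 21.3%. These measures differ, since the placed starts were scored over reads of any length and without added A that matches the genome. Reads that do not depend on position 23 were few. Those starting 1 base early and placed at a single gene numbered 2, 6 and 11 at Mir194-2 and 0, 0 and 0 at Mir194-1.

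The 3p arms, which are not shared, had more reads from the same gene, at low counts. miR-194-2-3p had 5, 6 and 0 reads in replicates 1, 2 and 3, and miR-194-1-3p had 0 in each. Summed over the libraries, 11 reads against 0 give at least a 3.67-fold excess of miR-194-2-3p, with the 3 reads that a count of 0 allows over the group as the floor. The excess was present in 2 of 3 libraries, since replicate 3 had 0 reads of both. Without replicate 1 the bound fell to 2.00, and without replicate 2 to 1.67. At Mir194-2 the 5p arm made up 99.3% of both arms (95% Wilson interval 98.9 to 99.7%) with the equal division of shared reads, and 315 of 326 reads, or 96.6% (94.1 to 98.1%), when the 5p reads were limited to those placed at 1 gene. At Mir194-1, 3 reads were antisense to the hairpin, against 0 at the other 3 hairpins.

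miR-215-5p was detected at a low level. Its arm held 24, 32 and 26.5 reads, or 2.59, 2.96 and 2.59 RPM (mean 2.71 RPM ± 0.212, SD, n = 3), above the level that a count of 0 allows in every library. miR-215-3p had 0 reads in each library. The Mir192 5p arm exceeded the Mir215 5p arm 559-fold, 429-fold and 481-fold (mean 490-fold ± 65.5, SD, n = 3; 3 of 3 libraries; exact sign-flip permutation p = 0.25). Among reads at the reference starts that carry the shared seed UGACCUA, miR-215-5p contributed 0.224%, 0.293% and 0.257%. Within the chromosome 1 cluster, the level of miR-215-5p cannot be compared with that of miR-194-5p from Mir194-1, because the latter is known only up to the division of shared reads.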

How the data were processed

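Small RNA-seq alignments of 3 MIN6 libraries were analysed, in 1 group by the labels' glucose concentration. The authors trimmed adaptors with cutadapt, mapped the 14 to 41 nt reads exactly with Bowtie, and aligned the remaining reads with SHRiMP near the exact matches, with 1 mismatch in the body and further ones at the 3′-end. The build is mm9 per the labels. The deposited values are expected counts, that is, reads per distinct alignment with multi-locus reads divided equally, and they are not normalized. The other libraries of the study were not analysed here.

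Counts were summed per 5′-start, length and last base with pandas 2.3.3 in Python 3.11.15 (scipy 1.17.1, numpy 2.4.6), and plotted with matplotlib 3.10.9. Exact alignments end 1 base early in the files, which was corrected. Reference starts were placed where the summed reads matched the levels in the study's supplementary list within 0.2% in all libraries; 179 of 203 listed forms were placed at 1 start, and levels at placed starts therefore follow that list by construction. An arm holds the starts within 3 nt of its reference start. RPM refers to all mapped reads. To separate the miR-194 genes, read sequences were rebuilt from hairpin and mismatches. Wilson intervals use counts rounded to whole reads and cover counting error only, since reads carry no molecular identifiers. Reading of starts, lengths and mismatches was tested on simulated data. Those data were written with the same end convention, so the test cannot show that the files follow it. Within-library differences were tested by exact two-sided sign flips over the 3 libraries. The named forms are every arm of the 4 hairpins, starts with at least 1% of their arm and 10 reads in every library, and the placed neighbours in level. The members and lists were chosen with earlier results of these data known.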

Additional observations from a re-analysis of the deposited data

How the results depend on the processing

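The values of 8 results were recomputed with whole-number counts only, alignments without mismatch only, reads of 16 to 27 nt only, arms of 1 or 8 nt around the reference start, another denominator, and without each replicate, as far as each applied. No paired analysis was possible between groups because there is a single condition, and the sign-flip comparisons pair values within a library. Of the recomputed values, 47 stayed within 1 SD of the main value and 10 moved further. Part of the 47 was fixed in advance, because leaving out 1 of 3 libraries cannot move their mean by 1 SD. The restriction to 16 to 27 nt left every value unchanged. The count of 47 is therefore no measure of robustness. With alignments without mismatch only, miR-192-5p fell to 722 RPM and miR-194-5p to 71.2 RPM, the +1 share rose to 21.9%, the share of the main length of miR-192-5p to 87.0%, and the bound on miR-194-2-3p over miR-194-1-3p fell to 2.67. This alternative removes reads with A-to-C mismatches and with mismatching ends. With whole-number counts only, miR-194-5p fell to 34.9 RPM ± 31.5 (SD over the libraries), because most of its reads are divided between the genes. This filter also keeps divided counts that happen to be whole, and with so wide a spread its mean does not stand for a level. With miR-375-3p left out of the denominator, miR-192-5p was at 1651 RPM and miR-194-5p at 156 RPM. Leaving out a replicate gave a bound of 1.67 to 3.67 for miR-194-2-3p over miR-194-1-3p. At this depth, the 3p arms of all 4 hairpins and the +1 share of Mir215 rest on 11 reads or fewer, and no level can be compared between conditions.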
